A study of Mus musculus with 5 samples.

Results

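The regions described here are 703 H3K27me3 peaks that were called in mouse embryonic fibroblasts (MEFs) expressing EZHIP, inside regions where cells expressing H3.3 K27M had no called peak. They were chosen by position from 3 peak lists. A peak of the EZHIP list on chromosomes 1 to 19 was taken when it overlapped no K27M peak, overlapped a region of the K27R list, and no K27R region that it overlapped held a K27M peak, with 1 bp counting as overlap. The 703 peaks made up part of 4890 EZHIP peaks on these chromosomes, of 4992 in the whole EZHIP list and of 21573 intervals in the 3 lists together. They are called cleared-region peaks below, and a K27R region without a K27M peak is called K27M-cleared. "Cleared" means only that no peak was called there, because the lists carry positions and no signal.

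H3K27me3 is the trimethylated form of lysine 27 on histone H3. Polycomb Repressive Complex 2 (PRC2) writes the mark and EED, one of its core subunits, binds it, which helps the mark to spread from nucleation sites over broad domains. Unmethylated CpG islands at silent developmental genes are the best known nucleation sites in mammalian cells. H3.3 K27M, the histone mutant of diffuse midline glioma, and EZHIP, a protein of posterior fossa ependymoma that carries a K27M-like peptide, are both inhibitors of PRC2. H3.3 K27R has arginine at the same position and is commonly used as a control for K27M.

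The 3 groups were MEFs overexpressing H3.3K27M, H3.3K27R or human EZHIP after lentiviral transduction, all derived from 1 line of an E13.5 embryo with floxed Eed, so that the controls carried the floxed alleles too. By the study's methods the transgenes stood in a vector with an EF1a promoter and transduced cells were selected with puromycin. Each group had 1 library, with no replicates, and libraries of the parental cells and of a line with Eed deleted, which was a single clone, were not analysed here. Differences between groups can therefore not be set against replicate spread, and no test between conditions was possible. The lists held 3736 intervals for K27M and 4992 for EZHIP, which the authors named peaks, and 12845 for K27R, which they named enriched regions. None has read counts or scores, so that the depth behind an interval is unknown. The smallest gap between neighbours was 5.2 kb in the K27M list and 1.2 kb in the EZHIP list, so that peaks standing apart for EZHIP could be joined for K27M. In the K27R list 23 pairs of autosomal regions touched with a gap of 0 bp, but 0 regions with a cleared-region peak touched a region with a K27M peak. Of 12 fibroblast marker genes, 11 had their start site outside the K27R regions, the exception being Pdgfra, and 0 had it in a cleared-region peak. Of all 21418 autosomal protein-coding genes, 6041 had their start site in a K27R region and only 132 in a cleared-region peak. The 0 of 12 therefore says little about these peaks.

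Sequences from 4 cleared-region peaks are shown to give the range of DNA that they lay on. The first 3 are the richest 300 bases in CG within the peaks that held the longest CpG islands, outside annotated exons. They came from the Lmx1b peak (chr2:33481201-33501800, island of 3679 bp), a peak in an intron of Smarca2 (chr19:26679801-26686800, island of 3405 bp) and the Map3k5 peak (chr10:19650201-19657400, island of 1497 bp). The other comes from the middle of the widest peak that lay far from genes (chr15:39947601-39962000). Far from genes means here no overlap with a gene body and no start site within 50 kb. All are from the plus strand of NCBIM37 (mm9), and capitals mark CG dinucleotides.
Lmx1b, chr2:33496121-33496420: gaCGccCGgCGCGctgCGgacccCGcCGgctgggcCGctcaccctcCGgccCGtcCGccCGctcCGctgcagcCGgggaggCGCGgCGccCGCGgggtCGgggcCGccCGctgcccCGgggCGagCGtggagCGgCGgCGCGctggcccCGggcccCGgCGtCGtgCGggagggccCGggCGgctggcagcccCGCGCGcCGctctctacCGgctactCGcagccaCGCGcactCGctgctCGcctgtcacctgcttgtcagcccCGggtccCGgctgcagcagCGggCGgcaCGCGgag
Smarca2, chr19:26681261-26681560: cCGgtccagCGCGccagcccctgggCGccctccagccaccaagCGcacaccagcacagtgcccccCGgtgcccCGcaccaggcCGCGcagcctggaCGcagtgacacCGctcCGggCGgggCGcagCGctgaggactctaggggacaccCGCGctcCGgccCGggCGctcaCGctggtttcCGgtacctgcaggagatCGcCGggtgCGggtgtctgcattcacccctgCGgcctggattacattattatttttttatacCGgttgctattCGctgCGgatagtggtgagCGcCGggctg
Map3k5, chr10:19653931-19654230: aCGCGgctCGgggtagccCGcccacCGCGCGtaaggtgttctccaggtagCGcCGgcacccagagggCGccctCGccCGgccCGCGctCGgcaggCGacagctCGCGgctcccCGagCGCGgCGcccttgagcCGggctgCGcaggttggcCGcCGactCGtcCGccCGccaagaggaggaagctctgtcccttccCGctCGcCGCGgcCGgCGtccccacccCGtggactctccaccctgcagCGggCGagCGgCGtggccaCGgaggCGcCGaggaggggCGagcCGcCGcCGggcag
Far from genes, chr15:39954651-39954950: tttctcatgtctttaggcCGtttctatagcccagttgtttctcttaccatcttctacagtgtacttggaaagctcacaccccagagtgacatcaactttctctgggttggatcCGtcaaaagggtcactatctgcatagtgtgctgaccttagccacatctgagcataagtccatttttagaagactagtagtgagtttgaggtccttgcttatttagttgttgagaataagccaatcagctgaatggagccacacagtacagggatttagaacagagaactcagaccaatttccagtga
The 3 island windows held 52, 31 and 47 CG dinucleotides. The window far from genes held 2. As described next, peaks without an island were by far the more frequent among cleared-region peaks, though few lay as far from a start site as the last.

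Most cleared-region peaks did not themselves cover a CpG island or a start site, although many had one nearby. A CpG island, a stretch of C- and G-rich DNA that keeps its CG dinucleotides, overlapped 129 of the 703 peaks, or 18.3% (95% exact interval 15.6% to 21.4%), against 37.4% of all autosomal EZHIP peaks. The start site of a protein-coding gene likewise lay in 129 peaks, or 18.3%, against 31.6% of all autosomal EZHIP peaks. Both features were found in 91 peaks, an island alone in 38 and a start site alone in 38. The remaining 536 peaks, 76.2% (72.9% to 79.3%), held neither. Counting distance, a start site lay in the peak or within 5000 bp for 41.0% and within 10 kb for 52.8% (371 of 703), and an island in the peak or within 10 kb for 44.5% (313 of 703). Counting only islands of at least 500 bp, 11.8% of the peaks held one. The middle of the peak lay in an exon of a protein-coding gene in 37 peaks, in an intron in 242 and outside such genes in 424.

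The rule split the other EZHIP peaks as well, and island content differed between the groups. EZHIP peaks that overlapped a K27M peak numbered 3133, and 52.6% of them (50.8% to 54.3%) held an island. EZHIP-only peaks inside K27R regions that did hold a K27M peak elsewhere numbered 1046, and only 4.97% of them (3.73% to 6.47%) held an island. A further 8 EZHIP-only peaks lay outside K27R regions. The cleared-region peaks lay between these classes. The rule had a part in this order: K27M peaks often lay on islands, and an EZHIP peak that met one there was counted as overlapping, so that the shares are given as a description with no test of their difference. The intervals cover counting error only and treat neighbouring peaks as independent.

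The reverse class had a higher island share. K27M-only peaks in K27R regions without an EZHIP peak numbered 439 of 3338 autosomal K27M peaks. An island was present in 58.5% of them (53.8% to 63.2%), and the difference of cleared-region peaks from this class was -40.2 percentage points (-45.4 to -34.6, Newcombe interval). Both classes were cut in the same way with the inhibitors exchanged. Start sites followed the same order, with 5.26% of the EZHIP-only peaks in regions with a K27M peak, 43.3% of the peaks overlapping a K27M peak and 46.5% of the K27M-only class. The difference of cleared-region peaks from the K27M-only class was -28.1 points (-33.5 to -22.6). These intervals for differences cover counting error over peaks only and treat neighbouring peaks as independent. The classes came from lists of different groups, which had no replicates and differed in the smallest gap between peaks. The intervals therefore do not measure spread between cultures and are no test between conditions. On 19 of 19 autosomes, the island share of cleared-region peaks was below that of peaks overlapping a K27M peak, above that of EZHIP-only peaks in regions with a K27M peak and below that of the K27M-only class.

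Cleared-region peaks were narrow, with a median width of 2.8 kb (95% interval 2.6 to 3.0) and quartiles of 1.8 and 4.4 kb. Their widths ran from 1.2 kb, the width of 59 peaks, to 20.8 kb. At most 2 kb was covered by 243 peaks, at least 5 kb by 158 and at least 10 kb by 29. Together they covered 2.57 Mb, and 685 of the 703 lay wholly inside a K27R region. EZHIP-only peaks in regions with a K27M peak had a similar median of 2.6 kb (2.4 to 2.8), whereas peaks overlapping a K27M peak had one of 6.2 kb and the K27M-only class one of 3.8 kb. Width enters the chance of overlapping a K27M peak, which the rule used, so that the widths are given as a description.

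**Figure D1:**
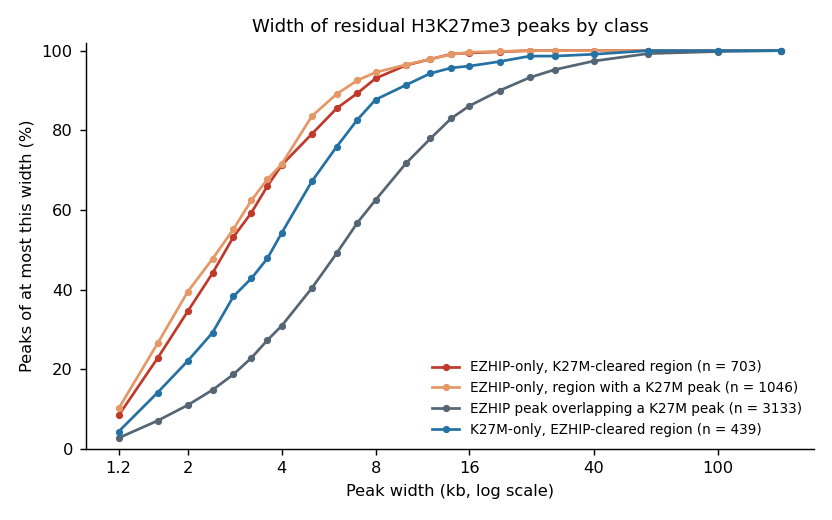
Cumulative share of peaks (y axis, %) up to each width (x axis, kb, log scale) for the 703 cleared-region peaks and 3 other classes, with lines joining the share at each width. Both EZHIP-only classes rise first, with medians of 2.8 and 2.6 kb, the K27M-only class follows at 3.8 kb and peaks overlapping a K27M peak come last at 6.2 kb.

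The order of island shares was the same within the width classes up to 8 kb. Among peaks of up to 2 kb, an island was found in 13.2% of cleared-region peaks, 1.69% of EZHIP-only peaks in regions with a K27M peak, 20.6% of peaks overlapping a K27M peak and 51.5% of the K27M-only class. At this width the intervals of the cleared-region peaks (9.18% to 18.1%) and of the peaks overlapping a K27M peak (16.5% to 25.3%) overlapped. Between 4 and 8 kb the shares were 28.8%, 8.30%, 52.5% and 68.7%. Above 8 kb, however, only 49 cleared-region peaks remained, and 16.3% of them (7.32% to 29.7%) held an island, an interval that overlaps that of the EZHIP-only peaks in regions with a K27M peak, 14% (6.26% to 25.8%). Within a window of 2 kb about the middle of each peak, which sets all peaks to 1 size, the shares were 16.8%, 4.02%, 35.4% and 51.9%. Start site shares of narrow peaks were close for 2 of the classes: up to 2 kb, 11.5% of cleared-region peaks (7.79% to 16.2%) and 9.88% of peaks overlapping a K27M peak (6.94% to 13.5%) held one. The other 2 classes stood apart at this width. The share was 2.18% (1.00% to 4.10%) for EZHIP-only peaks in regions with a K27M peak and 27.8% (19.2% to 37.9%) for the K27M-only class.

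**Figure D2:**
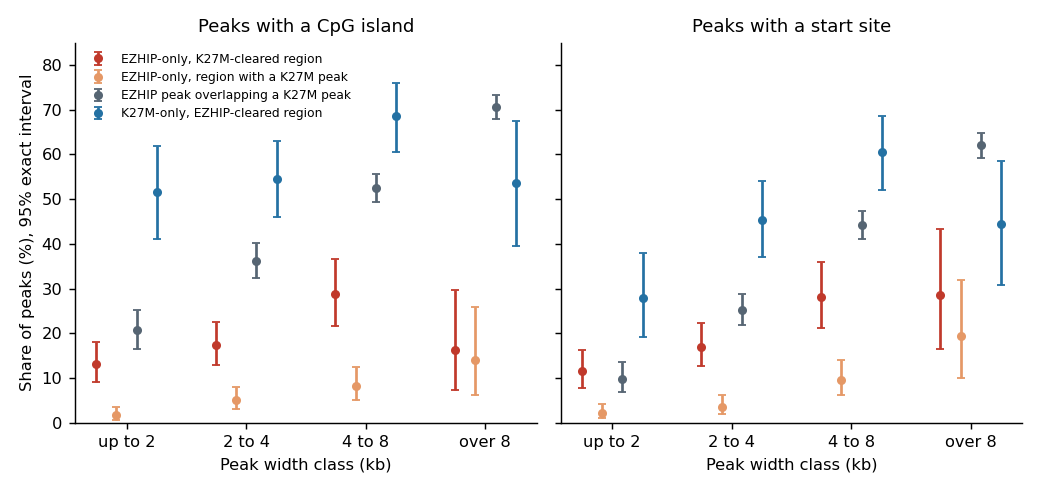
Share of peaks (y axis, %) with a CpG island (left) or with the start site of a protein-coding gene (right) in 4 classes of peak width (x axis, kb). Points are shares and bars 95% exact intervals; cleared-region peaks lie above EZHIP-only peaks of regions with a K27M peak up to 8 kb and below the K27M-only class for islands in every width class, and their start site share meets that of peaks overlapping a K27M peak at up to 2 kb.

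Base composition, which needs no definition of islands, gave a different order for the typical peak of the EZHIP-only classes. In the middle 2 kb, cleared-region peaks held a median of 1.00 CG dinucleotides per 100 bases and 44.5% G+C. The corresponding values were 1.10 and 46.3% for EZHIP-only peaks in regions with a K27M peak, 1.55 and 49.95% for peaks overlapping a K27M peak, and 2.65 and 51.6% for the K27M-only class. By these medians cleared-region peaks were the lowest of the 4 classes, below the EZHIP-only peaks of regions with a K27M peak, whereas their island share was higher. The middle of K27R regions with no peak in either list had 0.70 CG per 100 bases and 42.3% G+C. The mean over the central 500 bp of cleared-region peaks was 1.69 CG per 100 bases. It stood at 1.27 for the EZHIP-only peaks in regions with a K27M peak, 2.71 for peaks overlapping a K27M peak and 3.49 for the K27M-only class.

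**Figure D3:**
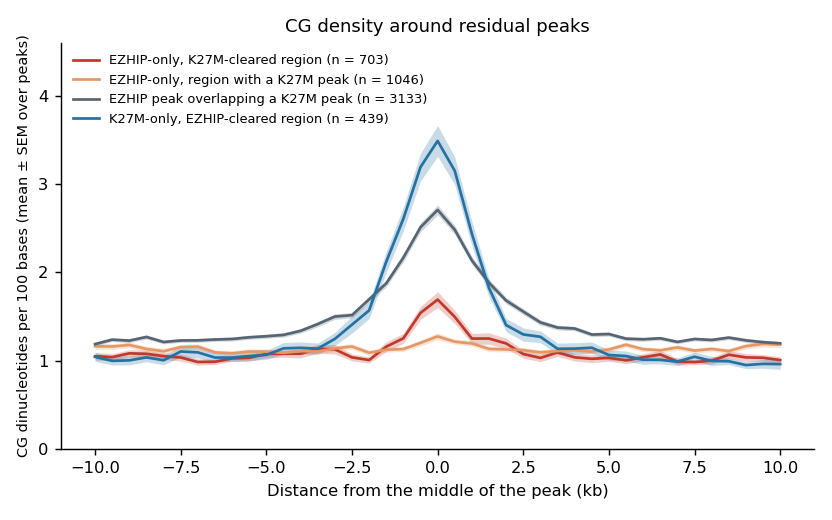
Mean CG dinucleotides per 100 bases (y axis; bands are the standard error over peaks) in bins of 500 bp against the distance from the middle of the peak (x axis, kb). Cleared-region peaks show a small central rise to 1.69, between the nearly flat EZHIP-only class of regions with a K27M peak (1.27) and the classes that peak at 2.71 and 3.49.

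The K27R regions served as the reference, and few of the K27M-cleared ones held a peak in the EZHIP list. Of 10040 K27M-cleared regions, 497 held a cleared-region peak, or 4.95%, a share that the rule itself sets. The regions with such a peak had a median width of 57.2 kb in the K27R list, against 11.2 kb for the 9543 regions with no peak in either inhibitor list. They were narrower than the 1651 regions with peaks of both inhibitors (92.8 kb) and wider than the 402 regions with K27M peaks only (30.2 kb). At least 1 island lay in 52.1% of them (47.6% to 56.6%), compared with 11.2% of the regions without a peak, 89.0% of the regions with both and 76.9% of those with K27M peaks only.

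Region width and islands both went with the presence of a cleared-region peak. Among K27M-cleared regions without an island, 0.323% of those between 1.2 and 5.8 kb wide held one, rising to 20.6% of those over 100 kb (52 of 252). Among regions with an island the shares were 4.69% and 39.8% (90 of 226). In each of the 5 width bands compared, the share was higher with an island, and in the band of about 29 to 100 kb it was 22.8% (19.2% to 26.8%) against 6.61% (5.42% to 7.98%). A wider region offers more room for a peak, and no expected number for that was set against these shares.

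Cleared-region peaks often missed the islands of their own regions. In the 259 regions with both an island and a cleared-region peak, such a peak lay on an island in 126, or 48.6% (42.4% to 54.9%). EZHIP peaks did so in 88.2% of the regions with peaks of both inhibitors that had an island, and K27M peaks in 81.9% of the corresponding K27M-only regions. For start sites the shares were 42.4% (123 of 290), 78.1% and 73.3%. The rule had a part in these gaps. Both comparison sets were defined by holding K27M peaks, which often lay on islands. In regions with both, all EZHIP peaks were counted, including those overlapping a K27M peak. Region widths differed too, with medians of 57.2, 92.8 and 30.2 kb in the same order. The 574 cleared-region peaks without an island had their nearest one at a median distance of 22.9 kb, and 184 of them had one within 10 kb. Coverage was low too: the peaks took a median of 6.46% of their region (5.67% to 7.74%), and within regions of 50 to 150 kb 3.92%, against 11% for EZHIP peaks in regions with both and 5.66% for K27M peaks in K27M-only regions.

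The median cleared-region peak lay midway between the edge and the middle of its region. On a scale on which 0% is the region's edge and 100% its middle, the median cleared-region peak lay at 50% (44.8% to 53.1%). EZHIP-only peaks in regions with a K27M peak lay closer to the edge, at 43.6% (41.0% to 46.4%), and the K27M-only class closer to the middle, at 60.4% (56.0% to 65.3%). Peaks overlapping a K27M peak lay at 55.7% (54.3% to 57.0%). The rule kept EZHIP-only peaks off K27M peaks, which limits where they could lie in regions that held one. The scale takes the middle of a peak, so a peak inside a region cannot score below its own share of that region. K27M peaks covered a median of 14.7% of K27M-only regions, against 6.46% for cleared-region peaks in theirs. No expected position was set against these values. Cleared-region peaks with an island lay at 53.1% (44.1% to 62.6%) and those without at 49.1% (43.7% to 52.8%), and these intervals overlap. For 126 peaks with 1 start site, a median of 56.2% of the peak (50.1% to 59.4%) lay downstream of the start site, in the direction of transcription. The value for peaks overlapping a K27M peak was 58.2% (56.8% to 59.1%).

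Most of these peaks lay far from any K27M peak, in part because the rule allowed none in their K27R region. The nearest K27M peak lay at a median distance of 244.8 kb, 30 cleared-region peaks had one within 50 kb and 0 had one within 10 kb. No other class was set beside these distances. The 3 closest were chr1:94857401-94861400 at 22.6 kb, chr4:3890601-3894400 at 26.6 kb and chr2:35866201-35869400 at 27.8 kb. On the other side of the rule's limit, the EZHIP peaks left out by the smallest overlap shared 200 bp with a K27M peak. They were chr14:27186401-27187800, chr4:148076401-148077800 and chr12:73996201-73998000, which were 1.4, 1.4 and 1.8 kb wide.

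Most regions held a single cleared-region peak, but a few held a row of them. There were 382 regions with 1 peak and 115 with 2 or more, and the 15 regions with at least 5 peaks held 98 of the 703. The region with most was a keratin cluster, chr11:99095801-99329800, of 234.0 kb with 13 peaks that covered 78.4 kb or 33.5% of it. It spans Krt24, Krt25, Krt26, Krt27, Krt28, Krt10, Krt12 and Krt20, which are genes of acidic type I keratins, the intermediate filament proteins of epithelia and hair follicles, and a related gene, Krt222. The start sites of Krt24 and Krt28 lay in peaks of 19 and 12.4 kb, and the other 7 start sites did not. The region has 2 CpG islands and 0 of the 13 peaks touched one. The nearest K27M peak lay 44.2 kb from the edge of the region.

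Other rows lay inside or beside single genes and in gene clusters. Within Rims2, which encodes a scaffold protein of the presynaptic active zone, 9 peaks of 1.2 to 10.0 kb had their middle in an intron (chr15:39081801-39525800, 444.0 kb, 11.9% covered). None of the 9 held an island or a start site. Around Hfm1, a meiotic DNA helicase gene, 8 peaks covered 35.6 kb of chr5:107127601-107372000. One of them held the Hfm1 start site and the only island of that region. Next to Entpd1, whose product hydrolyses extracellular ATP, 8 peaks covered 28.1% of chr19:40797401-40904800, with 3 of them overlapping the gene and the rest beyond its 3′ end. Around Abcc2, an organic anion transporter gene, 7 peaks covered 43.6% of chr19:43834601-43914800. Further rows were 7 peaks in an olfactory receptor cluster with 27 protein-coding genes (chr11:58169801-58659800), 6 peaks beside the nonclassical class I genes H2-M9, H2-M1, H2-M10.5 and H2-M10.6 (chr17:36753601-36971800) and 5 peaks around the interleukin genes Il1a and Il1b (chr2:129124801-129412400). In the widest region with a cleared-region peak, chr8:27277801-27819600, a single peak of 3.4 kb lay in 541.8 kb without an annotated protein-coding gene.

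**Figure D4:**
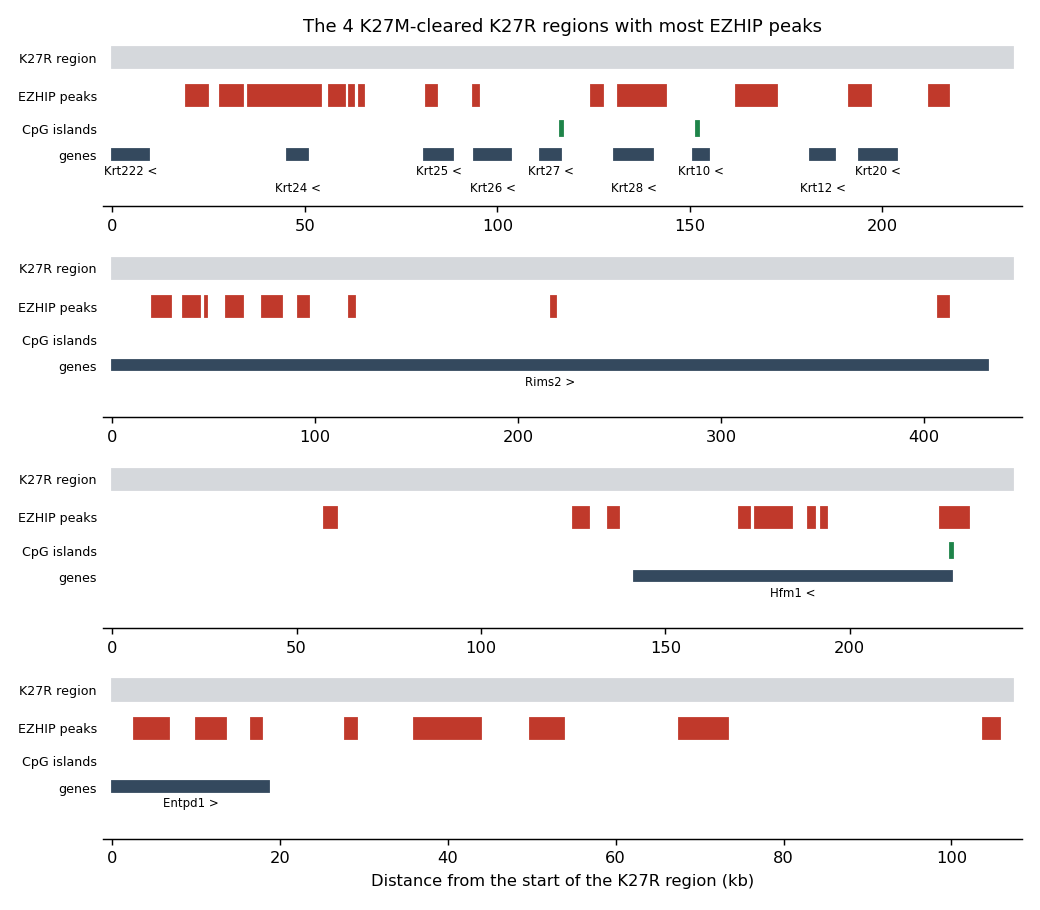
Maps of the 4 K27M-cleared regions with most EZHIP peaks, from the keratin cluster (top) through Rims2 and Hfm1 to Entpd1 (bottom), drawn to scale as distance from the start of the K27R region (x axis, kb). Grey bars are the K27R region, red bars the 13, 9, 8 and 8 EZHIP peaks, green bars CpG islands and dark bars protein-coding genes with their direction, cut at the region's ends; only 1 of these peaks, at the Hfm1 start site, lies on an island.

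The widest cleared-region peaks were of both kinds. At chr15:84938601-84959400 a peak of 20.8 kb lay over Gm10923 and part of Smc1b, a meiotic cohesin gene, with no island. The second, of 20.6 kb, covered the start of Lmx1b, a LIM homeobox factor of dorsal limb and kidney development. It took up 17.6 of the 18.2 kb of its K27R region, or 96.7%, so that nearly the whole of this region was also called in EZHIP cells, and the nearest K27M peak lay 81.4 kb away. The Krt24 peak (chr11:99131001-99150000) came next with 19 kb, followed by 18.2 kb beside the H2-M genes (chr17:36927401-36945600) and 15.4 kb at chr16:57104601-57120000, both between genes. The others of the 10 widest were the peak far from genes shown above (14.4 kb) and peaks in Snx31, a sorting nexin gene (14 kb), Abhd3 (13.8 kb), Abcc2 (13.2 kb) and Gm136 (13.2 kb). Of these 10 peaks, those at Lmx1b and Abhd3 held an island.

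Some peaks overlapped no gene and lay far from any start site. There were 92 cleared-region peaks, 13.1%, that overlapped no gene body and had no start site within 50 kb, and 4 of them held an island. The 3 widest were the 14.4 kb peak on chromosome 15, which lay 172.1 kb from the nearest start site and 20.6 kb from the nearest island, chr19:40833401-40841400 (8.0 kb) in the row beyond Entpd1, and chr5:5844201-5852000 (7.8 kb). The 3′ end of a gene could lie nearer than 50 kb. In its K27R region the chromosome 19 peak lay at 36 to 44 kb, and Entpd1 ended at 18.7 kb. The CG contents of these 3 peaks were 0.88, 1.61 and 0.82 per 100 bases. The CG content of the Lmx1b peak, by contrast, was 3.43 per 100 bases over its whole length.

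Start sites of 132 protein-coding genes lay in cleared-region peaks, out of 2541 genes with a start site in a K27M-cleared region, or 5.19%. Of these 132 genes, 18 belonged to one of 24 gene lists of developmental factors, signalling genes and large gene families. The lists were made by symbol and are not complete, and 12 of them had none. Listed developmental transcription factors, the classical Polycomb targets, were few in number here, as they were in K27M-cleared regions altogether. Of 275 such factors with a start site in a K27R region, 258 or 93.8% were in a region that also held a K27M peak, compared with 57.9% of all genes. That left 17, of which 3 lay in a cleared-region peak, or 17.6% (3.8% to 43.4%), an interval that includes the 5.19% of all genes.

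The 3 listed factors were Lmx1b, Hesx1 and Tal2. Myt1 and Arnt2, transcription factor genes in none of the lists, also had their start sites in cleared-region peaks. The counts of factors given here therefore hold for the lists only. Hesx1, a homeobox repressor of forebrain and pituitary development, had a peak of 2.4 kb without an island in a region of 10.4 kb (chr14:27812801-27815200). Tal2, a basic helix-loop-helix factor of midbrain neurons, had a peak of 2.4 kb over an island of 258 bp (chr4:53791601-53794000). For homeobox factors as a whole, 140 of 146 were in regions with a K27M peak, and 2 of the 6 others lay in cleared-region peaks. Forkhead and Gata factors had 21 of 21 and 5 of 5 in regions with a K27M peak, so that neither could contribute. Sox factors had 3 start sites in K27M-cleared regions, T-box factors 1 and other developmental zinc finger factors 4, with 0 in cleared-region peaks.

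Among signalling genes, Frzb and Sfrp2 stood in the list of Wnt ligands, Frizzled receptors and antagonists, and both encode secreted Frizzled-related proteins that bind Wnt ligands. They were 2 of 6 genes of that list in K27M-cleared regions. The Sfrp2 peak was 7.8 kb wide over an island of 1099 bp (chr3:83565801-83573600), and the Frzb peak 3.6 kb wide over an island of 1408 bp (chr2:80285801-80289400). Acvr1c, a type I receptor of the TGF-beta family, had a peak of 1.2 kb over an island of 603 bp and was 1 of 6 in its list. Fgf ligands and receptors had 0 of 2. Counts of this size give wide intervals, 4.33% to 77.7% for the Wnt list and 0.421% to 64.1% for the TGF-beta list.

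Neuronal genes and large gene families gave small counts, given here beside the 5.19% of all genes. Chrm1, a muscarinic acetylcholine receptor gene (5.2 kb, no island), was 1 of 25 neurotransmitter receptors in K27M-cleared regions, or 4% (0.101% to 20.4%), and Sema6d, an axon guidance ligand (2.0 kb over an island of 464 bp), was 1 of 12 axon guidance genes, or 8.33% (0.211% to 38.5%). Listed ion channels had 0 of 20 and cadherins and protocadherins 0 of 30, with upper limits of 16.8% and 11.6%. The ion channel list leaves out Scnn1b, a sodium channel subunit gene whose start site lay in a cleared-region peak. Olfactory receptors had 2 of 152, Olfr311 and Olfr313 in the same cluster, or 1.32% (0.160% to 4.67%), an upper limit below the share of all genes. This interval treats receptor genes that share a region as independent, however, and no allowance was made for the number of lists. Vomeronasal receptors had 0 of 49 (up to 7.25%) and Zfp zinc fingers 0 of 22 (up to 15.4%). In K27M-cleared regions 22 keratin genes had their start site, and Krt24 and Krt28 were the 2 within cleared-region peaks, or 9.09% (1.12% to 29.2%).

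The remaining lists gave 0 to 2 genes each. Slc7a8, an amino acid transporter gene (8.4 kb, island of 887 bp), and Slc26a5, the gene of the outer hair cell motor protein prestin (1.2 kb, no island), were 2 of 51 solute carriers, or 3.92%. Adam23, a neuronal member of the disintegrin family without protease activity (3.8 kb, island of 814 bp), and Adamts13, the protease that cleaves von Willebrand factor (6.8 kb, no island), were 2 of 19 metalloproteases, or 10.5%. Cyp17a1, a steroidogenic enzyme gene (4.0 kb, no island), was 1 of 24 cytochrome P450 genes, or 4.17%. Gpr98, a large adhesion receptor gene of sensory hair cells (1.8 kb, island of 506 bp), was 1 of 18 orphan receptors, or 5.56%. Chemokines and their receptors had 0 of 12, and collagens 0 of 2. The other 114 genes were in none of the lists, out of 2052 such genes in K27M-cleared regions or 5.56%. Some of these genes share a peak with a neighbour, and a peak over a start site says nothing of expression, which was not analysed here.

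Cleared-region peaks were spread unevenly over the chromosomes. They made up 29.0% of the EZHIP peaks on chromosome 16 (38 of 131), 22.8% on chromosome 15 (77 of 338) and 22.6% on chromosome 19 (53 of 234), but 7.43% on chromosome 4 (24 of 323). As a share of K27M-cleared regions, those with a cleared-region peak ranged from 1.88% on chromosome 14 (0.814% to 3.67%) to 10.8% on chromosome 15 (8.02% to 14.2%). On chromosomes 19 and 15 much of the count came from short stretches: 24 peaks in 7 regions lay between 40 and 45 Mb of chromosome 19, and 23 peaks in 4 regions between 35 and 40 Mb of chromosome 15. Leaving out chromosome 15 left 626 peaks with an island share of 19% and a median width of 2.6 kb.

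**Figure D5:**
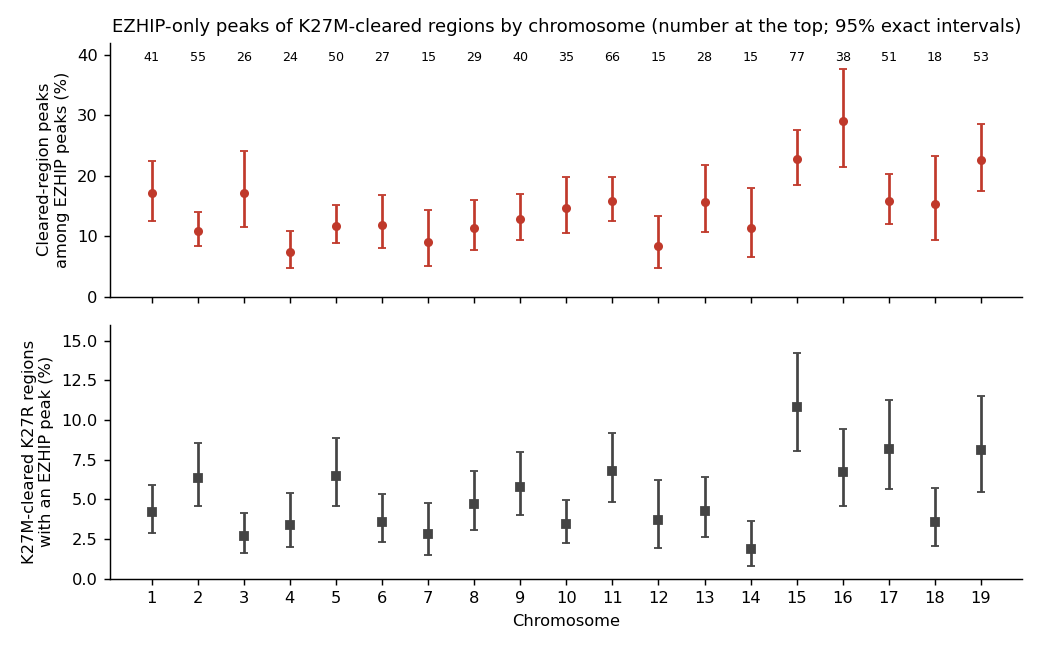
Cleared-region peaks by chromosome (x axis), as a share of EZHIP peaks (top, %, with the number of cleared-region peaks written above) and as the share of K27M-cleared K27R regions that held one (bottom, %). Points are shares with 95% exact intervals; chromosomes 15, 16 and 19 are highest in the top panel and chromosome 15 in the bottom panel.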

How the data were processed

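H3K27me3 ChIP-Seq peak lists of 3 MEF lines (H3.3K27M, H3.3K27R and EZHIP; 1 library each, of 5 samples in the series) were analysed. Per the labels, crosslinked chromatin was digested with MNase. The authors aligned reads to mm9 and to the genome of another species with bowtie1 (Bowtie 1.0.0 and deepTools are in the submitters' processing notes) and called broad peaks with MOSAiCS-HMM. The deposited lists hold positions only, with no score, so that a stricter threshold could not be applied and depth is unknown. The shortest gaps between neighbours (5200 bp for K27M, 1200 bp for EZHIP and 0 bp for K27R) are below the maximum gap given in the methods. The lists therefore do not match that setting as stated, and the settings behind them are not known.

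Starts and ends lay on a 200 bp grid. Overlap meant at least 1 shared bp. CpG islands (27400) were found in mm9 by scoring 17 per CG and -1 per other base, with at least 200 bp, 50% G+C and an observed to expected ratio above 0.6. Start sites were 5′ ends of 22350 protein-coding genes (GENCODE on NCBIM37). Shares have 95% Clopper-Pearson intervals, differences Newcombe intervals and medians order-statistic intervals. Scripts in Python 3.11.15 with pandas 2.3.3, numpy 2.4.6 and scipy 1.17.1 were tested on simulated data.

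Named items were the 10 widest peaks, the regions with most peaks, the 3 widest regions, genes of the lists with a start site in a peak, the 3 longest islands, the 3 widest peaks far from genes, and the peaks nearest the rule's limit. The regions, gene lists and alternatives were chosen with earlier results of these data known. Alternatives were minimum widths, merging of peaks or regions, other overlaps and distances, chromosomes left out or added, and other island and start site definitions.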

Additional observations from a re-analysis of the deposited data

How the results depend on the processing

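No paired analysis was possible because each group had 1 library. Requiring no K27M peak within 10000 bp removed no peak, so its 6 values could not change, and merging EZHIP peaks left the share of K27M-cleared regions at 4.95% by construction. Of 61 other values recomputed, 45 stayed within the 95% interval of the value reported (or within 1.5 times the number of peaks) and 16 moved beyond it. Counts, widths, shares and positions carry no sign, so that no value could reverse. With EZHIP peaks of at least 2000 bp, the median width was 3.6 kb and 3.69% of K27M-cleared regions held a cleared-region peak. With at least 5000 bp, 158 peaks remained, with a median of 7.0 kb, an island share of 25.9%, a start site share of 29.7% and 1.21% of K27M-cleared regions. Merging EZHIP peaks up to 10000 bp apart gave a median of 3.2 kb, islands in 22.4% and start sites in 23.5%, and merging K27R regions gave 5.51% of K27M-cleared regions. Islands of at least 500 bp were in 11.8% of peaks, start sites in 14.5% of windows of 2000 bp about the middle, and start sites within 5000 bp of 41.0%. After seeing the data, 3 alternatives were added. Taking only the widest peak of each region gave islands in 23.5% and start sites in 21.9%. Leaving out regions with 5 or more peaks left 605 peaks with islands in 20.8%. Merging EZHIP peaks up to 5000 bp apart, shorter than any gap in the K27M list, left 629 peaks with islands in 20.8%, against 4.74% of EZHIP-only peaks in regions with a K27M peak and 61.2% of peaks overlapping one. Cleared-region peaks also lay between these 2 classes with minimum width 5000 bp and after merging up to 10000 bp. Without replicates, scores or counts, variation between cultures and a difference in calling depth between the lists cannot be told apart from the groups.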

Other observations

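Among the genes in cleared-region peaks that were in none of the lists, the following were picked after their values were seen, and no share was computed for them. Ezr, which links membrane to the actin cytoskeleton, had a peak of 6.8 kb over an island of 989 bp. Spint1, a serine protease inhibitor of epithelial cells, had one of 2.2 kb over an island of 1215 bp, and Shroom3, an apical constriction factor, one of 2.4 kb over an island of 415 bp. Scnn1b, a sodium channel subunit gene, had one of 1.8 kb over an island of 555 bp. Upk3a, a urothelial membrane protein gene, had one of 2.0 kb without an island.

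The receptor genes Glp1r (1.8 kb, island of 493 bp), Glp2r (2.2 kb, no island), Agtr1a (3.8 kb, island of 471 bp) and Prlr (1.8 kb, no island) each had their start site in a cleared-region peak. Phc2, a subunit of Polycomb Repressive Complex 1, had one of 7.0 kb over an island of 762 bp. The interferon genes Ifna7 and Ifna11 shared a peak of 4.0 kb, and Ifna5 had one of 1.8 kb in the same region.

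Start sites of 21 genes that are not protein-coding lay in cleared-region peaks, of which 7 were annotated as pseudogenes, 4 as lincRNAs and 3 as miRNAs. No share of all such genes was set beside these counts, so they do not show whether 21 is many or few. With chromosome X included, 706 peaks met the rule.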
